A study of Homo sapiens with 19 samples.

Results

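Genes of glycolysis and of the response to low oxygen were described in 19 cell lines derived from MDA-MB-231, a human triple-negative breast cancer line, with 1 Affymetrix array for each line. The members were 37 named genes, and a probe set (a group of short probes that together read 1 transcript) was taken only where the platform annotation gave a member gene and no other. This left 61 of 22283 probe sets, for 34 of the 37 genes. CA9, SLC16A3 and ANKRD37 were not analysed here, and 2 SLC2A3 probe sets shared with another gene were left out. The only PFKFB4 probe set exceeded the 40th percentile of its array's signals on 1 of the 19 arrays and was not tested, so 60 probe sets and 33 genes were tested: 18 glycolytic enzymes or regulators, 3 genes of transport and mitochondrial entry, and 12 oxygen-regulated genes. Where a gene had several probe sets, the one with the highest mean signal stood for it.

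The groups were 4 strongly bone-metastatic lines (1833, 2274, 2268 and 2269) and 3 weakly bone-metastatic lines (2293, 2295 and 2296), then 4 strongly lung-metastatic lines (4142, 4173, 4175 and 4180) and 3 weakly lung-metastatic lines (SCP21, SCP6 and SCP26). A hyper-ploid and a modal-ploid subline of 1833 and of 4175 and the parental line completed the study. The line titled 2296 has another number in its cell line label. All lines were cultured tumour cells harvested before confluence in serum-containing medium with the selective drugs each needed, and the labels give no exposure to low oxygen and no animal tissue. The labels do not say which lines grew from a single cell, and since each line has 1 array, every spread below is between lines and not between repeat cultures.

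Glycolysis splits glucose into pyruvate in a fixed order of enzymes, and lactate dehydrogenase turns pyruvate into lactate when it is not burned in mitochondria. When oxygen is low, the prolyl hydroxylases of the EGLN family stop marking the HIF alpha subunits for destruction, and HIF binds a short DNA core and raises the transcription of many glycolytic enzymes, glucose carriers and survival genes. Tumour cells often run this programme at normal oxygen as well.

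The deposited values are linear ratios, each a probe set's signal over a divisor of its own, and they can be compared within an array set only. The first array set holds the bone lines, both 1833 sublines and the parental line, and the second holds the lung lines and both 4175 sublines. A ratio therefore says how high a gene stood on one array against the others of its set, not how abundant it was against another gene. Markers chosen as present in the line, VIM, CD44, EGFR and KRT18, lay above the 40th percentile on all 19 arrays. Of those chosen as low in the line, PGR did so on 0 and CDH1 on 1, but ERBB2 on 19 and ESR1 on 16. Of the markers of other cell types, PTPRC and CDH5 exceeded it on 0 arrays, PDGFRB on 1, CD3E and CD14 on 13 each, PECAM1 on 17 and COL1A1 on 19. The trimmed mean of the signals recovered from the ratios was 322.7 to 360.4 for the 4 ploidy sublines, against 498.8 to 499.3 for the other 15 arrays. Spike-in controls averaged 11.1 to 11.4 (log2 signal) on the parental and bone arrays, 9.89 to 10.7 on the lung arrays and 9.25 to 9.60 on the ploidy arrays. Array handling and target organ therefore cannot be told apart, nor can handling and the status of ploidy subline. In RNA from whole cultures, fewer cells that express a gene and less of its RNA in each cell cannot be told apart.

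Promoters of 6 members are shown because their brightest probe set passed a test described below and the table gives them 1 start each. They are the 250 bases before the RefSeq transcription start in GRCh38.p14, written 5′ to 3′ on the gene's strand, with capitals on each match to either form of the HIF core, ACGTG and also GCGTG. The other strand was searched as CACGT and also CACGC. The letters CACGTG hold 2 overlapping matches. ALDOC lies at chr17:28576896-28577145 on the minus strand, ENO2 at chr12:6914330-6914579 on the plus strand, PFKL at chr21:44299803-44300052 on the plus strand, EGLN3 at chr14:33951075-33951324 on the minus strand, CA12 at chr15:63381847-63382096 on the minus strand and DDIT4 at chr10:72273674-72273923 on the plus strand.
ALDOC: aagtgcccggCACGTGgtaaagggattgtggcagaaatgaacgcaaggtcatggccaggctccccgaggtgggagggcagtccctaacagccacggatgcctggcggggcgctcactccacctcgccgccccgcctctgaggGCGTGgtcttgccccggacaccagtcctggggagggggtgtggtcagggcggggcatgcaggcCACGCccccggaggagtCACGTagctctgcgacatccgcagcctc
ENO2: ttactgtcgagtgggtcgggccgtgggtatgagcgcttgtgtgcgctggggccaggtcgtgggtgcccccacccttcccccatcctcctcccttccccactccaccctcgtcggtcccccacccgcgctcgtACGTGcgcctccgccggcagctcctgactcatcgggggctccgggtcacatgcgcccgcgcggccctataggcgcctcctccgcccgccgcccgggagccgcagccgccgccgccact
PFKL: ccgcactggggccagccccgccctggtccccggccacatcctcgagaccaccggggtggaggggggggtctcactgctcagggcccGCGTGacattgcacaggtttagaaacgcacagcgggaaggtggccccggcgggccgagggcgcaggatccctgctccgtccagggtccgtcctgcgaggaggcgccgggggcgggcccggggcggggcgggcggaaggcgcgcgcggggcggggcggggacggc
EGLN3: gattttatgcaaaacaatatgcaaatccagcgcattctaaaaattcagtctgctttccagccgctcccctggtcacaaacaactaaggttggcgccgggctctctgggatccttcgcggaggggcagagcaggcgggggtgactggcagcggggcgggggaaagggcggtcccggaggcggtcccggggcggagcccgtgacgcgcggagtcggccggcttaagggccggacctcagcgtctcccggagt
CA12: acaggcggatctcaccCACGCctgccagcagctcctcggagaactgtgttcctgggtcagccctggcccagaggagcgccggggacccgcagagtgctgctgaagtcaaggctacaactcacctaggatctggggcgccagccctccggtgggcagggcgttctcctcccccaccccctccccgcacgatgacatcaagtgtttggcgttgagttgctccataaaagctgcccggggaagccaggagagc
DDIT4: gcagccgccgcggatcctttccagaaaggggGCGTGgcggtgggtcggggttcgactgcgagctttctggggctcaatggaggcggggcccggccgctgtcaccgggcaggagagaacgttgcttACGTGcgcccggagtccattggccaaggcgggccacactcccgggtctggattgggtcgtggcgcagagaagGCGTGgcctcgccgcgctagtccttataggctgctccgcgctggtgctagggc
The ALDOC window held 5 matches and that of DDIT4 3. Those of ENO2, PFKL and CA12 held 1 each, and the EGLN3 window held 0. Of the 33 genes tested, 30 were matched in the promoter table by symbol (BNIP3L, NDRG1 and SLC2A3 were not). A match stood in at least 1 window of 25 of those 30 genes (83.3%), against 12945 of 27305 genes in the whole table (47.4%). Counted by window, since a gene can have several starts, it was 32 of 55 member windows (58.2%), against 15172 of 35116 windows in all (43.2%). These are matches of letters and not measured binding sites.

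Among the 18 glycolytic genes, strongly bone-metastatic lines had lower levels than weakly bone-metastatic lines of 5: the aldolase ALDOC, the enolase ENO2, triose phosphate isomerase TPI1 and the phosphofructokinase subunits PFKL and PFKM. Hexokinase HK2, which commits glucose to the cell, was higher. The difference was 3.18-fold for ALDOC and 2.92-fold for ENO2, and between 1.70-fold and 2.22-fold for the other 4. Lines of the same group differed by less than the groups did, and strong and weak lines did not overlap for any of the 6. This adds little, since the 6 were called on these same values, and 27.6% of all genes did not overlap in bone lines. Across the 33 members tested, 1 passed the threshold as higher and 6 as lower, where 5.9% and 3.91% of the 9546 genes tested did (limma, Benjamini-Hochberg adjusted p under 0.05). That is 21.2% of the members in either direction, against 9.81% of all genes.

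The first kinase step was read by HK1 and HK2. HK2 ratios were 1.23 in 1833, 1.74 in 2274, 1.37 in 2268 and 0.947 in 2269, against 0.466 in 2293, 0.611 in 2295 and 0.692 in 2296. Each strong bone line stood above every weak one, and the group means differed by 1.15 on the log2 scale (SE 0.30, adjusted p = 0.0313). A dimmer HK2 probe set, above the 40th percentile on 3 arrays, differed by 1.16 (SE 0.46, adjusted p = 0.134). HK1, the other hexokinase, differed by 0.38 (SE 0.21, adjusted p = 0.27), and its groups overlapped.

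Phosphofructokinase, the main control point of the pathway, is built from 3 subunit types. PFKL, the liver-type subunit, had ratios of 0.940 in 1833, 0.742 in 2274, 0.822 in 2268 and 0.985 in 2269, against 1.75 in 2293, 1.52 in 2295 and 1.63 in 2296. It was lower by 0.91 (log2 difference -0.91, SE 0.22, adjusted p = 0.0212), and its second probe set had a difference of -0.73 (SE 0.29, adjusted p = 0.134). For PFKM, the muscle-type subunit, ratios were 0.746 in 1833, 0.809 in 2274, 0.995 in 2268 and 0.826 in 2269, against 1.39 in 2293, 1.41 in 2295 and 1.47 in 2296. The 3 weak lines lay close together, and the difference was -0.76 (SE 0.18, adjusted p = 0.0193). PFKP, the platelet-type subunit, also had groups that did not overlap, with 0.640 in 1833, 0.796 in 2274, 0.740 in 2268 and 0.547 in 2269, against 1.01 in 2293, 1.10 in 2295 and 1.22 in 2296, but its difference of -0.72 (SE 0.23) did not pass (adjusted p = 0.0697). PFKFB3, which makes the activator of this step, differed by -0.65 (SE 0.32, adjusted p = 0.232).

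Aldolase splits the 6-carbon sugar, and TPI1 interconverts its products. ALDOC, the brain-type aldolase, had ratios of 0.710 in 1833, 0.802 in 2274, 0.656 in 2268 and 0.591 in 2269, against 2.13 in 2293, 1.97 in 2295 and 2.48 in 2296. No strong line came near a weak one, and the log2 difference was -1.67 (SE 0.20, adjusted p = 0.000501). TPI1 had 0.788 in 1833, 1.0 in 2274, 0.998 in 2268 and 0.707 in 2269, against 1.78 in 2293, 1.91 in 2295 and 1.49 in 2296. Its 2 bright probe sets differed by -0.99 (SE 0.20, adjusted p = 0.00896) and -0.98 (SE 0.16, adjusted p = 0.0028), and a dim one by -0.23 (SE 0.34, adjusted p = 0.731). ALDOA, the main aldolase of most cells, had a difference of -0.46 (SE 0.23, adjusted p = 0.229), although its groups did not overlap.

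Of the enzymes that complete the pathway, ENO2 was the only one of 8 to pass the threshold, where 9.81% of all genes passed. ENO2, the enolase best known from neurons, had ratios of 0.788 in 1833, 1.07 in 2274, 0.931 in 2268 and 0.471 in 2269, against 2.44 in 2293, 2.21 in 2295 and 2.20 in 2296. All 4 strong lines lay under the 3 weak ones, with 2269 lowest, and the log2 difference was -1.55 (SE 0.35, adjusted p = 0.0175). The general enolase ENO1 had a difference of 0.12 (SE 0.18, adjusted p = 0.746) on its brightest probe set. A second bright one differed by 0.60 (SE 0.19, adjusted p = 0.0615) with groups that did not overlap. On their brightest probe sets GAPDH, PGK1, PGAM1, PKM, LDHA and LDHB had differences between -0.24 and 0.18, and their groups overlapped. Adjusted p-values were from 0.554 to 0.924. Their other probe sets ranged from -0.89 (a dim PKM one, SE 0.38, adjusted p = 0.167) to 0.18. A bright PGK1 probe set, at -0.29 (SE 0.29, adjusted p = 0.581), had groups that did not overlap. For LDHA, which makes lactate, the difference was 0.04 (SE 0.18). GPI, the isomerase of the upper pathway, differed by 0.12 (SE 0.22, adjusted p = 0.786). Probe sets whose name ends in x_at (ALDOA, CA12, EGLN1, GAPDH, LDHB, PFKL, SLC2A3 and TPI1 among those used) carry the maker's mark for probes that can also match other transcripts.

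**Figure D1:**
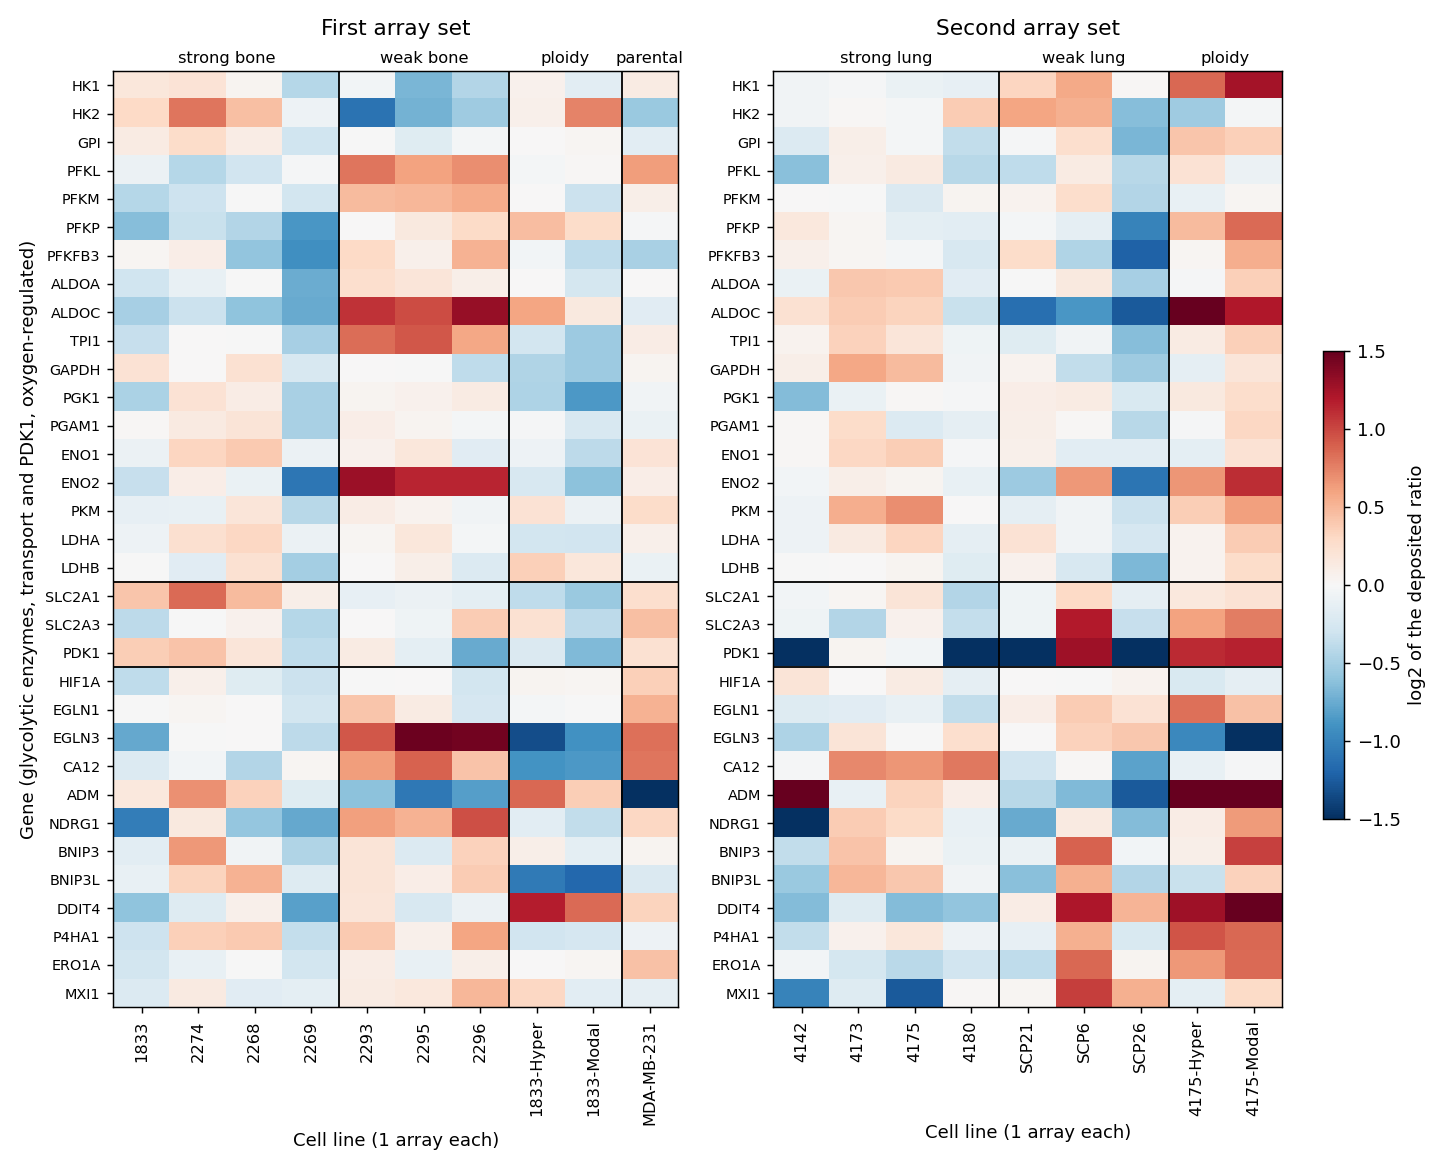
Log2 of the deposited ratio for the 33 members tested (down the page, in pathway order) in each of the 19 lines (across), with the 2 array sets in separate panels because ratios compare within a set only; colours saturate at -1.5 and 1.5. ALDOC, TPI1, ENO2, PFKL and EGLN3 are blue or pale in strong bone lines and red in weak bone lines, while ALDOC is the reverse in lung lines.

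Glucose carriers and the gate to the mitochondrion gave 0 calls in bone lines. SLC2A1, the main glucose carrier of tumour cells, had ratios of 1.33 in 1833, 1.81 in 2274, 1.39 in 2268 and 1.06 in 2269, against 0.917 in 2293, 0.941 in 2295 and 0.902 in 2296. Every strong line stood above every weak one, yet the difference of 0.58 (SE 0.21) did not pass (adjusted p = 0.0995), and a dimmer SLC2A1 probe set differed by -0.21 (SE 0.22, adjusted p = 0.608). The neuronal-type carrier SLC2A3 had a difference of -0.30 (SE 0.31, adjusted p = 0.602). Its other 2 probe sets differed by 0.55 (SE 0.36, adjusted p = 0.374) and by -0.73 (SE 0.31, adjusted p = 0.154), the second with no overlap. Of the 14 members with several probe sets tested, signs differed among them for 4 in bone lines, 3 in lung lines and 7 in the ploidy fit. PDK1, which closes the entry of pyruvate into the citric acid cycle, differed by 0.41 (SE 0.76, adjusted p = 0.791).

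Of the 12 oxygen-regulated genes, 1 passed in bone lines, the prolyl hydroxylase EGLN3, a sensor that HIF itself induces. That is 8.33% of the 12, against 9.81% of all genes. Its ratios were 0.585 in 1833, 0.999 in 2274, 1.0 in 2268 and 0.759 in 2269, against 1.91 in 2293, 2.77 in 2295 and 2.73 in 2296. It was 2.98-fold lower in strong bone lines, with no overlap (log2 difference -1.58, SE 0.25, adjusted p = 0.00238). EGLN3 was dim: 2 of the 4 strong lines and 3 of the 3 weak lines lay above the 40th percentile. The sensor EGLN1 and the subunit HIF1A, which is controlled mostly as a protein, had differences of -0.16 (SE 0.17, adjusted p = 0.627) and -0.11 (SE 0.16, adjusted p = 0.713).

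With EGLN3 included, 11 of the 12 oxygen-regulated genes had a difference below 0, where 4706 of the 9546 genes tested did. The median of the 12 was -0.26, where the median over all genes tested was 0.01. CA12, a surface carbonic anhydrase that handles acid, had 0.865 in 1833, 0.976 in 2274, 0.737 in 2268 and 1.02 in 2269, against 1.55 in 2293, 1.84 in 2295 and 1.34 in 2296. Its groups did not overlap, but the difference of -0.81 (SE 0.24) had an adjusted p of 0.0567, and its other 5 probe sets ranged from -2.15 to -0.38. NDRG1, a stress-induced differentiation gene, had 0.487 in 1833, 1.10 in 2274, 0.669 in 2268 and 0.589 in 2269, against 1.53 in 2293, 1.43 in 2295 and 1.95 in 2296, with a difference of -1.26 (SE 0.43, adjusted p = 0.0813). ADM, the secreted vessel-widening peptide adrenomedullin, had the one difference above 0. Its ratios were 1.12 in 1833, 1.61 in 2274, 1.27 in 2268 and 0.883 in 2269, against 0.653 in 2293, 0.476 in 2295 and 0.563 in 2296, a difference of 1.09 (SE 0.37, adjusted p = 0.079) with no overlap. BNIP3 and BNIP3L (mitochondrial clearance), DDIT4 (an mTOR brake), P4HA1 (collagen hydroxylation), ERO1A (disulfide formation) and MXI1 (a MYC antagonist) had differences between -0.36 and -0.09. These were on their brightest probe sets, with adjusted p-values from 0.463 to 0.895. A second bright BNIP3L probe set differed by -0.58 (SE 0.23, adjusted p = 0.139), with no overlap.

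Groups did not overlap for 13 of the 33 members in bone lines (39.4%), 3 higher and 10 lower, where 27.6% of all genes did not overlap, 14.6% higher and 13% lower. The median difference over members was -0.20. Line 2269 was lowest of the strong bone lines for 24 of the 33, and its array also had the lowest median ratio over all genes of the 7 bone lines, at -0.14 on the log2 scale. Without 2269, 8 members passed, 2 higher and 6 lower. The calls of ALDOC, TPI1 and EGLN3 held with each of the 14 lines left out in turn. That of ENO2 was lost without 2293, 2295 or 2296 (adjusted p from 0.0506 to 0.0636). HK2 lost its call without any of those 3 or without 1833, 2274 or 2268 (0.0565 to 0.123), and also with no filter on dim probe sets (0.0537). PFKM lost it without any of those 3 or without 1833 or 2274 (0.0506 to 0.0662), and PFKL without any of those 3 or without 2274 or 2268 (0.0512 to 0.0815).

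**Figure D2:**
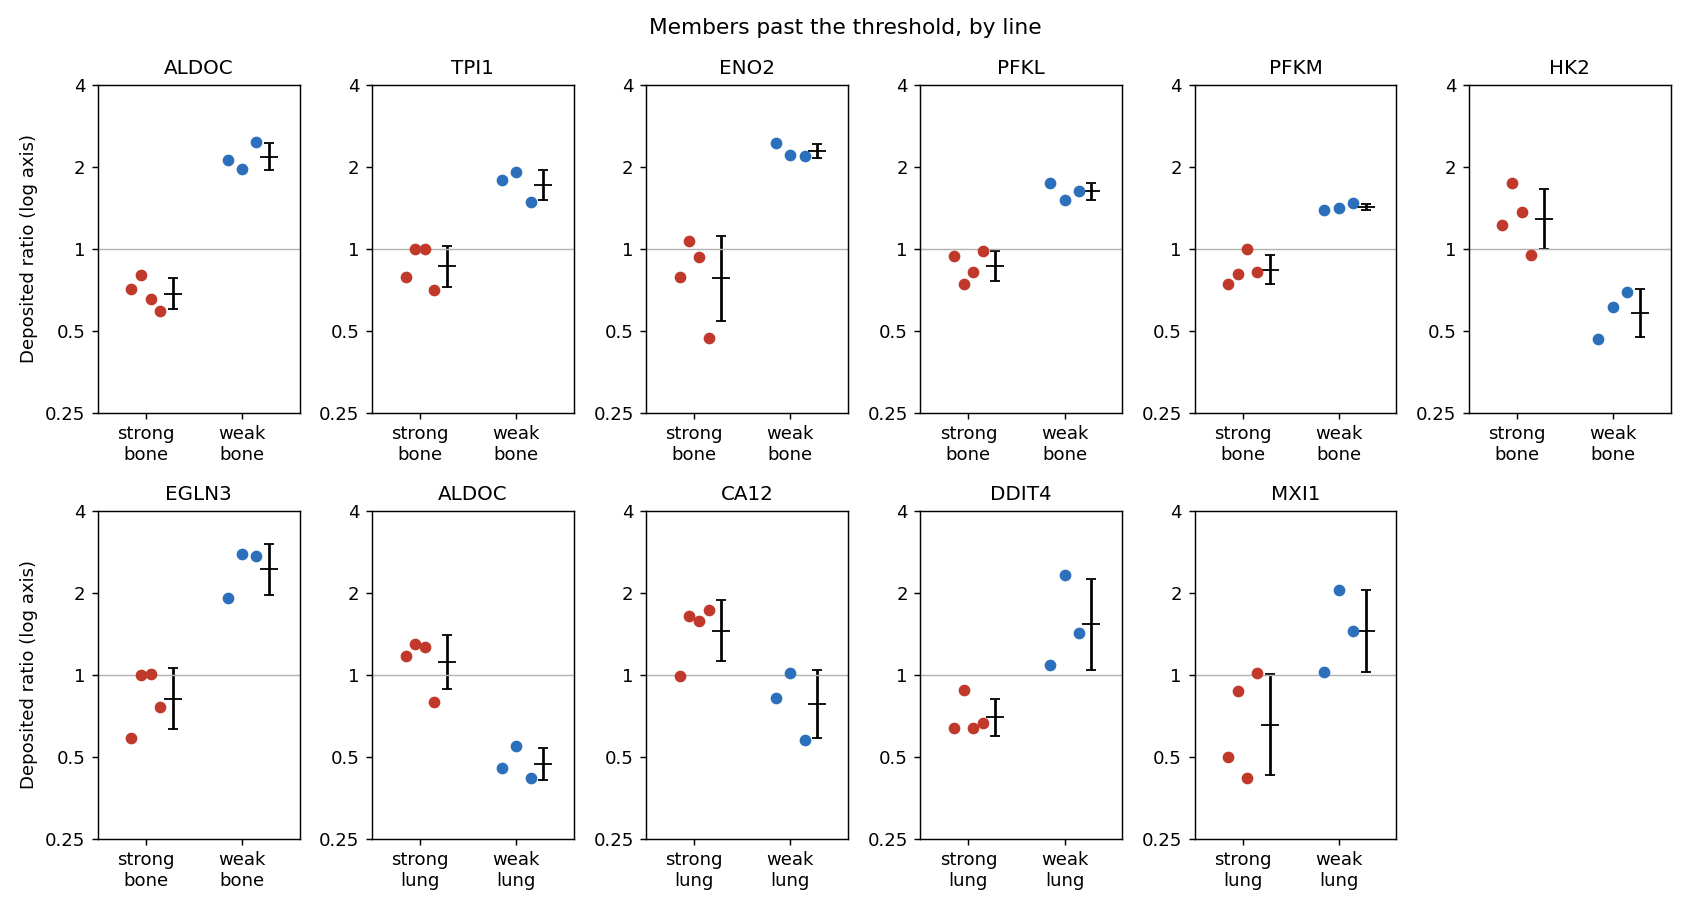
Deposited ratio (log axis) of the members whose brightest probe set passed the threshold, 1 point for each line, for 7 members in bone lines and 4 in lung lines; the black mark is the mean and its bar 1 SD, both on the log2 scale. Strong and weak lines do not overlap except for CA12 in lung lines, and ALDOC is low in strong bone lines but high in strong lung lines.

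Strongly lung-metastatic lines had more ALDOC and CA12 than weakly lung-metastatic lines, and less DDIT4 and MXI1. Of the 33 members, 2 passed as higher and 2 as lower, 12.1% in all, where 7.78% of all genes passed, 2.93% higher and 4.85% lower. Groups did not overlap for 6 members (18.2%), 2 higher and 4 lower, against 19.8% of all genes, 8.36% higher and 11.4% lower.

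ALDOC was the only glycolytic gene of the 18 whose brightest probe set passed. Its ratios were 1.18 in 4142, 1.30 in 4173, 1.26 in 4175 and 0.792 in 4180, against 0.455 in SCP21, 0.546 in SCP6 and 0.418 in SCP26. All strong lines exceeded the weak ones, and the group means differed by 2.37-fold (log2 difference 1.24, SE 0.20, adjusted p = 0.00308). Of the 18 glycolytic genes 14 had a difference above 0, against 49.1% of all genes. The median of the 18 was 0.25, where the median over all genes was -0.01. Among them GAPDH, the enzyme after TPI1, was higher on all 6 of its probe sets and passed the threshold on 2. Its 5′ control probe set had 1.20 in 4142, 1.40 in 4173, 1.31 in 4175 and 1.0 in 4180, against 0.796 in SCP21, 0.799 in SCP6 and 0.632 in SCP26, a difference of 0.73 (SE 0.18, adjusted p = 0.0273). The middle one differed by 0.79 (SE 0.20, adjusted p = 0.0291), while the brightest differed by 0.56 (SE 0.21, adjusted p = 0.148), and all 6 lay between 0.53 and 0.79. The gap between the 5′ and 3′ GAPDH control probe sets bears on RNA integrity. Taken on the deposited ratios, it was -0.12 to 0.09 (log2) in strong lung lines and -0.35 to 0.13 in weak ones. Each probe set has its own divisor, so this only sets an array against others of its set. It does not show whether RNA was intact, and its part in these results was not tested. TPI1 differed by 0.42 (SE 0.20, adjusted p = 0.233), PKM by 0.46 (SE 0.21, adjusted p = 0.23) and HK1 by -0.38 (SE 0.21, adjusted p = 0.323). SCP26 was the lowest weak lung line for 23 of the 33 members, with a median of -0.51 over the glycolytic genes and of -0.05 over all genes.

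CA12 had ratios of 0.989 in 4142, 1.65 in 4173, 1.58 in 4175 and 1.73 in 4180, against 0.818 in SCP21, 1.01 in SCP6 and 0.573 in SCP26. Line 4142 lay among the weak lines and the other 3 above them. The difference was 0.90 (SE 0.24, adjusted p = 0.0437), a second probe set also differed by 0.90 (SE 0.21, adjusted p = 0.0252), and the 6 CA12 probe sets ranged from 0.07 to 1.78. ADM had 2.99 in 4142, 0.925 in 4173, 1.26 in 4175 and 1.07 in 4180, against 0.748 in SCP21, 0.630 in SCP6 and 0.419 in SCP26. Its groups did not overlap, but the difference of 1.26 (SE 0.37) did not pass (adjusted p = 0.0569).

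DDIT4, which slows mTOR signalling under stress, had 0.637 in 4142, 0.878 in 4173, 0.635 in 4175 and 0.665 in 4180, against 1.08 in SCP21, 2.32 in SCP6 and 1.43 in SCP26. It was lower by 2.19-fold (log2 difference -1.13, SE 0.28, adjusted p = 0.0269). For MXI1, ratios were 0.497 in 4142, 0.872 in 4173, 0.418 in 4175 and 1.02 in 4180, against 1.02 in SCP21, 2.05 in SCP6 and 1.45 in SCP26. The difference was -1.14 (SE 0.31, adjusted p = 0.0438), and line 4180 lay just under the lowest weak line. EGLN3 differed by -0.26 (SE 0.25, adjusted p = 0.6), HIF1A by 0.03 (SE 0.16, adjusted p = 0.941) and NDRG1 by 0.19 (SE 0.43, adjusted p = 0.846).

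SCP6 was the highest weak lung line for 22 of the 33 members and for 9 of the 12 oxygen-regulated ones. The share over all genes was not counted. Its median (log2) was 0.46 over those 12, 1.19 over the 3 transport and entry genes, -0.02 over the glycolytic genes and 0.11 over all genes. The 40th percentile of signal was 62.0 on the SCP6 array, against 90.1 to 105 on the other lung arrays, and the part of this was not tested. The SLC2A3 ratio of SCP6, a transport gene, was 2.29, against 0.953 in SCP21 and 0.790 in SCP26. Its BNIP3 ratio was 1.85, against 0.932 and 0.974 in those 2 lines, and its ERO1A ratio 1.82, against 0.767 and 1.02. These genes were chosen after their values were seen. PDK1 spread widely within both lung groups, with 0.294 in 4142, 1.03 in 4173, 0.974 in 4175 and 0.216 in 4180, against 0.286 in SCP21, 2.41 in SCP6 and 0.216 in SCP26; it lay above the 40th percentile on 2 of the 4 strong and 1 of the 3 weak lung arrays.

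Without SCP6, 2 members passed in lung lines, both higher: DDIT4 then differed by -0.83 (adjusted p = 0.0913) and MXI1 by -0.89 (adjusted p = 0.148). DDIT4 also lost its call without 4142, 4175 or 4180 (0.0605 to 0.0739). With 1 line left out, the call of MXI1 held only without SCP21 or 4180. That of CA12 was lost without SCP21, SCP26, 4173, 4175 or 4180 (0.0789 to 0.12), and also without some bone lines, which lend the fit their spread. The GAPDH 5′ probe set lost its call without 4142, 4173, 4175 or SCP26 (0.0534 to 0.0838) and the middle one without 4173, 4175, SCP6 or SCP26 (0.0593 to 0.0882). Both also lost it with no filter (0.053 and 0.0556) and with the 7 lung lines alone (0.111 and 0.122). With the 7 lung lines alone DDIT4 (adjusted p = 0.0873), CA12 and MXI1 lost their calls too. CA12 also lost its call with no filter (at most 0.148 under these 2 alternatives). MXI1 lost it with no filter and with quantile scaling within each array set as well (at most 0.165). ALDOC kept its call with each of the 14 lines left out.

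**Figure D3:**
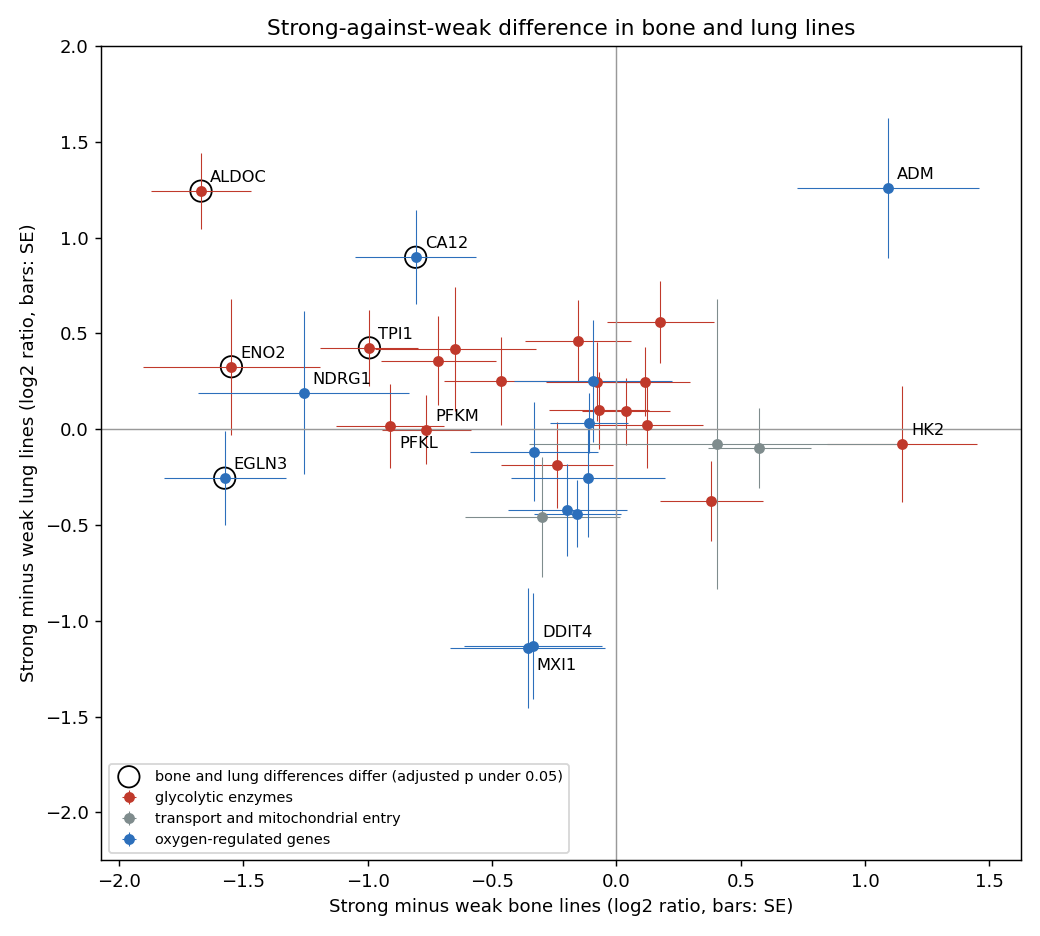
Strong minus weak bone lines (across) against strong minus weak lung lines (up) for the 33 members, as log2 ratios with SE bars from the fit of 14 lines; colours give the gene group and rings the 5 members whose bone and lung differences differ. ALDOC and CA12 lie at the upper left, lower in strong bone lines (CA12 without passing there) and higher in strong lung lines, and HK2 lies at the right near the zero line of the lung axis.

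The bone and lung differences were compared directly as strong minus weak in bone less strong minus weak in lung. For 5 of the 33 members this passed, all 5 below 0, where 10.5% of all genes passed, 6.29% above 0 and 4.17% below. ALDOC had the largest of the 5, at -2.91 (SE 0.28, adjusted p = 0.000156), with opposite and individually passing differences in the 2 organs. ENO2 followed at -1.87 (SE 0.50, adjusted p = 0.0343), CA12 at -1.70 (SE 0.35, adjusted p = 0.00889), TPI1 at -1.42 (SE 0.28, adjusted p = 0.00738) and EGLN3 at -1.32 (SE 0.35, adjusted p = 0.0318). HK2, with 1.23 (SE 0.43, adjusted p = 0.0895), and PFKP, with -1.07 (SE 0.33, adjusted p = 0.0551), did not pass. The DDIT4 and MXI1 differences, which passed in lung lines only, were not shown to differ between organs (0.80, SE 0.39, adjusted p = 0.226, and 0.79, SE 0.44, adjusted p = 0.295). For ADM, higher in strong lines of both organs without passing, it was -0.17 (SE 0.52, adjusted p = 0.881). ALDOC, TPI1 and CA12 kept this call with each of the 14 lines left out. ENO2 kept it in 4 of the 14 (highest adjusted p 0.0727, without 2293) and EGLN3 in 7 of the 14 (highest 0.0797).

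Ploidy sublines carry more chromosomes (hyper-ploid) or the line's usual number (modal-ploid). Fitted together, with each pair as a block, the sublines gave no calls: 0 of the 33 members and 0% of all genes passed; over all 16287 probe sets 756 had an unadjusted p under 0.05. The fit had 1 residual degree of freedom. Within a pair there is 1 array on each side and no test. None of the 33 members tested differed by 2-fold or more on its brightest probe set in either pair. Of all genes, 2.96% were at least 2-fold higher and 2.64% lower in 1833-Hyper than in 1833-Modal, and 4.12% and 4.18% in the 4175 pair. The untested PFKFB4 probe set had 2.14 in 1833-Hyper against 0.944 in 1833-Modal. Dim probe sets of TPI1 (log2 difference -1.25 in the 4175 pair) and HK2 (given below) also passed 2-fold.

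The direction of the small differences split by line of origin. In the 1833 pair 25 of the 33 members were higher in the hyper-ploid subline, with a median of 0.22 (log2), where 57.5% of all genes were higher and 42.5% lower, with a median of 0.06. In the 4175 pair 27 of the 33 were lower, with a median of -0.24, where 55.9% of all genes were lower and 44.1% higher, with a median of -0.07. For 24 members (72.7%, against 33.3% of all genes) the difference was above 0 in the 1833 pair and below 0 in the 4175 pair. They were 14 of the 18 glycolytic genes, 3 of the 3 transport and entry genes and 7 of the 12 oxygen-regulated genes. Another 5 had the reverse pattern.

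Examples were chosen after their values were seen. Among enzymes, ENO1 had 0.952 in 1833-Hyper against 0.762 in 1833-Modal, and 0.903 in 4175-Hyper against 1.17 in 4175-Modal. PGK1, the first enzyme to return ATP, had 0.727 in 1833-Hyper against 0.552 in 1833-Modal and 1.10 in 4175-Hyper against 1.20 in 4175-Modal. Its other 2 bright probe sets were higher in both pairs, by 0.87 and 0.88 in the 1833 pair and by 0.09 and 0.04 in the 4175 pair, and a dimmer one had -0.56 and 0.30. BNIP3 had the lowest difference of the members in the 4175 pair, at -0.94, with 1.06 in 4175-Hyper against 2.04 in 4175-Modal. ADM had 2.94 in 4175-Hyper against 4.89 in 4175-Modal, and 1.81 in 1833-Hyper against 1.29 in 1833-Modal.

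A few members did not follow this split. ALDOC was higher in both hyper-ploid sublines, with 1.51 in 1833-Hyper against 1.11 in 1833-Modal and 3.49 in 4175-Hyper against 2.29 in 4175-Modal. HK2 was lower in both, with 1.05 in 1833-Hyper against 1.68 in 1833-Modal and 0.690 in 4175-Hyper against 0.978 in 4175-Modal. Its dim second probe set went the other way, by 1.45 and 1.95 in the 2 pairs, with a blocked difference of 1.70 (adjusted p = 0.486). CA12, on its brightest probe set only, and ERO1A were also lower in both, with differences between -0.20 and -0.03. The other CA12 probe sets were all higher in 1833-Hyper, by 0.005 to 0.49. In the 4175 pair they ranged from -0.32 to 0.32.

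**Figure D4:**
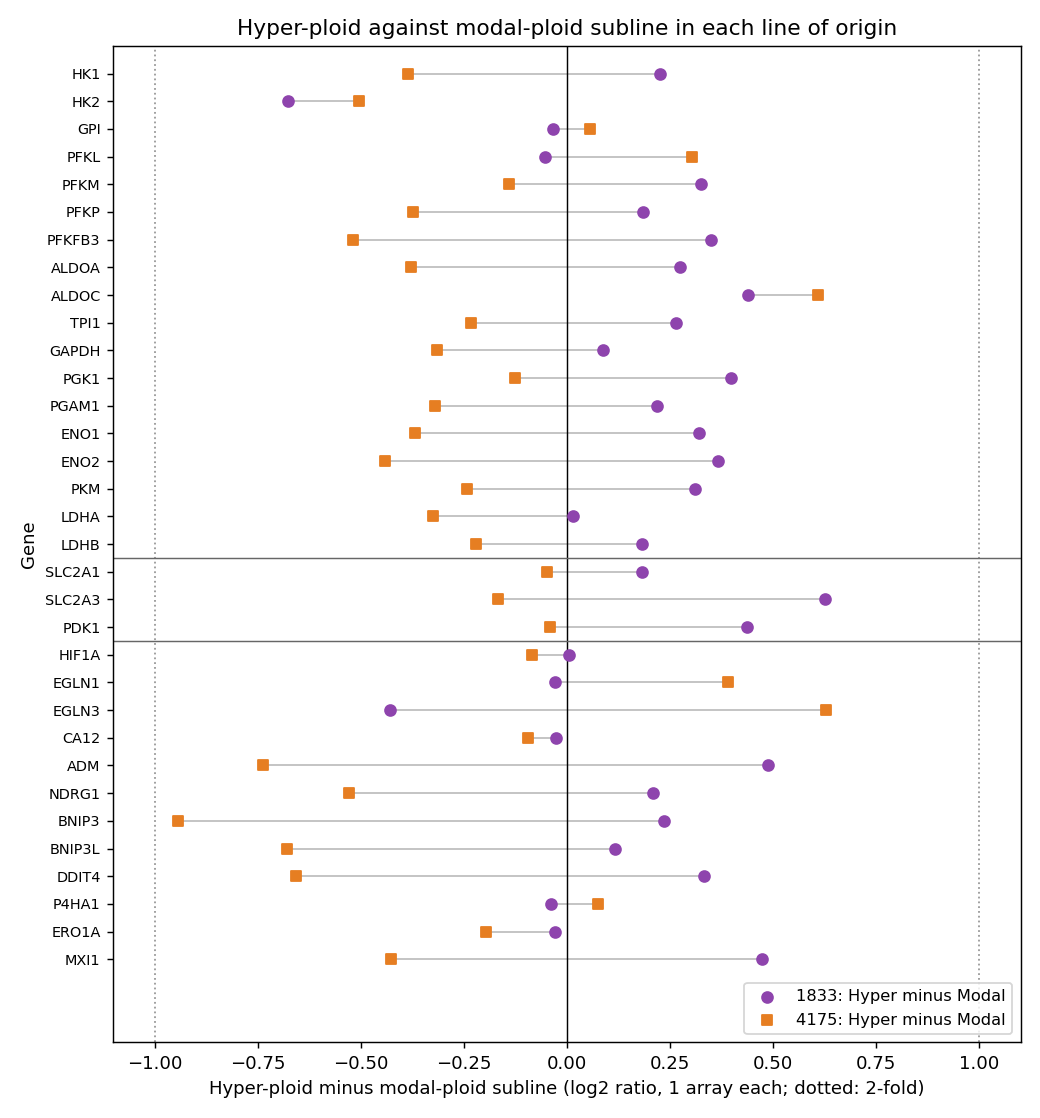
Hyper-ploid minus modal-ploid subline (log2 ratio) for each of the 33 members, circles for the 1833 pair and squares for the 4175 pair, 1 array on each side of a difference and so no error bar; dotted lines mark 2-fold. No point passes 2-fold, and 24 members have a circle above 0 and a square below 0.

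The 4175 sublines also stood apart from the lung lines of their array set. Both lay above all 7 lung lines for 9 of the 33 members (27.3%), where 10.1% of all genes did, and below all 7 for 2 (6.06%, against 7.14%). ALDOC, at 3.49 and 2.29 against 1.26 in the line 4175 itself, and DDIT4, at 2.41 and 3.80 against 0.635, were among the 9. Both 1833 sublines lay below all 7 bone lines for 6 members (18.2%, against 9.74% of all genes) and above for 1 (3.03%, against 15.8%). That one was DDIT4, with 2.27 and 1.80 against 0.658 in 1833. The ploidy arrays also had the low overall signal and spike-in level given above, and the part of these in the results was not tested.

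The parental array, 1 sample, lay nearer on the log2 scale to the strong bone mean for ALDOC (0.891), ENO2 (1.07), TPI1 (1.08) and PFKM (1.06). It lay nearer to the weak bone mean for HK2 (0.682), PFKL (1.54) and EGLN3 (1.77). Over all 33 members it was nearer to the strong mean for 18.

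Other genes of the same pathways were read by counts. Of 22 further genes of glycolysis and pyruvate 16 were tested, and in bone lines 1 was higher and 1 lower (12.5%, against 9.81% of all genes). FBP1, which runs the phosphofructokinase step backwards in glucose synthesis, had 1.88 in 1833, 1.46 in 2274, 1.51 in 2268 and 1.39 in 2269, against 0.286 in 2293, 0.288 in 2295 and 0.339 in 2296. Strong lines were far above weak ones (2.35, SE 0.30, adjusted p = 0.000685), the opposite direction to PFKL and PFKM. PDK2, a kinase that restrains pyruvate dehydrogenase, had a difference of -0.82 (SE 0.21, adjusted p = 0.0254). In lung lines 0 of the 16 were higher and 2 lower (12.5%, against 7.78% of all genes): PDHA1, a pyruvate dehydrogenase subunit (-1.01, SE 0.21, adjusted p = 0.0144), and its inhibitor PDK3 (-1.02, SE 0.20, adjusted p = 0.00791). Between organs FBP1 differed by 3.07 (SE 0.42, adjusted p = 0.000974).

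Of 25 further oxygen genes 22 were tested. In bone lines 1 was higher (4.55%, against 9.81% of all genes), the collagen cross-linking enzyme LOX, with 1.16 in 1833, 1.75 in 2274, 1.69 in 2268 and 0.843 in 2269, against 0.390 in 2293, 0.376 in 2295 and 0.529 in 2296. Its groups did not overlap (1.61, SE 0.34, adjusted p = 0.012), and its bone and lung differences differed by 1.87 (SE 0.48, adjusted p = 0.0277). In lung lines 1 was lower (4.55%, against 7.78% of all genes), the haem-degrading enzyme HMOX1 (-0.61, SE 0.16, adjusted p = 0.036). None of these 38 genes passed in the ploidy fit, as for the members.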

How the data were processed

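The authors deposited 1 value for each of 22283 probe sets in each of 19 arrays, as linear ratios; how images were read and normalised is not given in the sources used here, which name no software. How the ratios were made was read from the values. In the first array set (10 arrays) 91.6% of probe sets had a median of 1 across arrays (tolerance 1e-06), and in the second (9 arrays) 0.0224% did. After taking out an array factor and a divisor for each probe set, ratios were whole multiples of a step of 0.1 signal units (tolerance 0.02 steps) for 22140 probe sets (99.4%). For 142 bright ones only a lower bound of the signal was found and 1 was not recovered. The probe sets standing for GAPDH, ENO1 and LDHA were among those with a lower bound only. With values shuffled within arrays 0% were recovered.

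Recovered signals served to filter probe sets and to choose a gene's brightest one. A probe set was kept if at least 2 of the 19 arrays read it above their 40th percentile; 62 spike-in controls were left out and 16287 remained, for 9546 genes with 1 symbol each. In the platform annotation 19071 probe sets had 1 symbol, 1043 several and 2169 none. Identifiers of 19059 were found in RefSeq's GRCh38.p14 gene table, with 0 changes of symbol. Log2 ratios were analysed without rescaling in R 4.3.3 with limma 3.58.1 (lmFit, eBayes; Benjamini-Hochberg over all probe sets kept; threshold 0.05), in 1 fit of the 14 strong and weak lines and 1 of the 4 ploidy sublines with the line of origin, taken from the labels, as a block. The fit of strong and weak lines was tested on simulated data, for strong against weak bone lines only. The ploidy fit was not tested in this way. A ratio of ratios has no pseudocount, so differences of dim probe sets are noisy; the number of arrays limits precision. Members and gene lists were chosen with earlier results of these data known. Values in every line are given for members with a probe set past the threshold and for some chosen after their values were seen. Alternatives covered the values analysed, the filter, the scaling, the features and the samples.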

Additional observations from a re-analysis of the deposited data

Results flagged for a closer look

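The strong-against-weak difference differed between bone and lung lines, by the fit's own test, for ALDOC (-2.91), ENO2 (-1.87), CA12 (-1.70), TPI1 (-1.42) and EGLN3 (-1.32), each as bone difference less lung difference in log2 ratio, with the errors and p-values given above. In the 2 ploidy pairs, 29 of the 33 members had differences of opposite sign, against 53.2% of all genes; with 1 array on each side this difference was not tested.

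In 4 of 66 groups of 4 lines examined, 1 line lay far from the other 3, where chance gives about 1 in 20. The gap as a share of the group's range was 0.832 for MXI1 in strong bone lines (2274 at 1.10, the others 0.867 to 0.902). It was 0.889 for EGLN1 in strong bone lines (2269 at 0.826, the others 0.997 to 1.02). For DDIT4 in strong lung lines it was 0.857 (4173 at 0.878, the others 0.635 to 0.665), and for CA12 in strong lung lines 0.839 (4142 at 0.989, the others 1.58 to 1.73).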

How the results depend on the processing

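Counts are of members past the threshold out of 33. In bone lines the 7 became 11 with log2(signal + 64) on recovered signals, and ranged from 3 (without 2293, 2295 or 2296) to 10 with 1 line left out. In lung lines the 4 became 2 with no filter and 1 with the 7 lung lines alone, and ranged from 1 (without 4175) to 3 with 1 line left out. The 5 bone-lung differences became 3 with no filter, and ranged from 3 to 8 (8 without SCP6). The causes were not tested. With no replicate block the ploidy count stayed 0, as under every other alternative run. With 0 in both fits, this cannot show whether the line-of-origin pairing matters. The fit without a block also takes differences between the 2 array sets into its spread. The 25 members higher in 1833-Hyper and 6 in 4175-Hyper became 23 and 8 after centring or quantile scaling. For the 25 single probe-set results past the threshold, no alternative turned the sign: 453 values stayed past the threshold and 103 did not. Over all probe sets, the 1545 bone calls fell to 747, 751, 909 and 988 without 2293, 2295, 2296 and 2274, the 1217 lung calls to 471 with lung lines alone, 669 without 4173 and 662 without 4175, and the 1658 bone-lung calls to 1028 without 2295; ploidy calls were 1 with log2(signal + 64) and 23 with a stricter filter. Without SCP6 the lung calls were 543 higher and 383 lower, against 479 and 738 with it. Each line has 1 array, and EGLN3 and PDK1 were dim on some arrays.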
